A study of Homo sapiens with 8 samples.

Results

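The tumour necrosis factor (TNF) superfamily was examined in sorted microglia as a set of 35 genes given by symbol, 16 ligands and 19 receptors, each matched to 1 Ensembl gene among the 78899 of the deposited count table. Microglia, the resident macrophages of the brain, had been derived from H1, a single established human embryonic stem cell line, and carried a GFP label by which they were sorted 2 weeks after plating. The labels also call the cells iPSC-derived. In mono-culture (4 libraries) the microglia were kept alone with IL-34 at 100 ng/mL and M-CSF at 10 ng/mL, both ligands of the CSF1 receptor, and in tri-culture (4 libraries) they were kept with other cells, which the labels used here do not name, and with no added cytokine. Partner cells and cytokines therefore changed together and cannot be told apart. Each of 4 batches gave 1 library of each group, so the tests measure the spread between batches of 1 line.

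Ligands of this superfamily are mostly trimeric membrane proteins that can be shed, and they signal by clustering their receptors. Receptors with a cytoplasmic death domain recruit the adaptors TRADD or FADD and can start caspase-driven death or NF-kB signalling, whereas receptors without that domain bind TRAF adaptors and act mainly through NF-kB and MAP kinases. Decoy receptors bind ligand without a working death domain. In the brain microglia are a main source of TNF itself, and TNFR2 is prominent on them.

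The libraries held between 17037481 and 33363972 counts, and a 2-sided exact permutation test found no difference in their totals between the groups (p = 0.429). All 14 microglia and macrophage markers were detected in both groups, and their summed level ran from 4620 to 5480 CPM (counts per 1e6 counts, TMM-scaled) in mono-culture and from 6200 to 7830 CPM in tri-culture. Markers of other cells moved with the culture type. Of 15 tested markers of astrocytes and neural progenitors 12 were higher and 1, NES, lower in tri-culture, with sums of 313 to 369 against 694 to 811 CPM. Most of the mono-culture sum came from S100B, SLC1A3 and NES (124, 109 and 92.2 CPM), so the sums understate other markers. GFAP stood at 0.296 against 167 CPM. AQP4, ALDH1L1, PTPRZ1 and SOX2 had no count in mono-culture and stood at 23.2, 1.16, 13.8 and 14.1 CPM in tri-culture. Of 10 tested dendritic cell markers 6 were higher and 1, BATF3, lower, with sums of 348 to 450.0 against 801 to 951 CPM. Most of the mono-culture sum came from IRF8, at 291 CPM against 487 CPM in tri-culture, so the sums understate other markers. FCER1A stood at 0.0865 against 87.6 CPM and CD207 at 0.0876 against 48.3 CPM. FLT3 had no count in mono-culture and XCR1 none in tri-culture. Of 5 tested neuronal markers 3 were higher and 1 lower, with sums of 22.0 to 42.0 against 15.7 to 40.8 CPM and 6 of 13 at no count in mono-culture. The overlap of these sums hides opposite moves. Nearly all of the mono-culture sum came from MAP2 and SYT1, at 15.3 and 15.7 CPM against 12.2 and 4.00 CPM in tri-culture. The 3 higher markers, GAP43, NEFL and STMN2, stood at 0, 0.0171 and 0 CPM against 6.59, 2.92 and 1.92 CPM. Mesenchymal and endothelial markers summed to 275 to 364 against 568 to 889 CPM, and 1 of 7 tested was higher, PECAM1 (271 against 488 CPM), which macrophages also express. COL3A1, COL1A1, DCN and LUM set tri-culture libraries apart: COL3A1 stood at 203, 222 and 81.7 CPM in libraries 1, 3 and 4 and had no count in library 2, against at most 3.34 CPM in mono-culture. Without tri-culture library 2, 7 members were called higher and 11 lower (13.0% and 12.4% of all genes tested). That fit keeps the tri-culture libraries with these transcripts, so it cannot show their part in the calls. Lymphocytes, in which many of these ligands and receptors were first described, were represented by sums of 21.1 to 36.9 against 9.46 to 21.3 CPM, most of it NCAM1 (24.8 and 14.6 CPM), which neural cells also express. Only NCAM1 and NKG7 of 14 markers had enough counts to be tested, neither was called, and CD79B and GNLY had no count in any library. The part of these other cells in the values below was not tested. In bulk RNA, fewer cells of a type and less RNA per cell cannot be told apart.

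Ligand and receptor genes differed in both directions between the cultures, and most of the receptor genes that changed were lower in tri-culture. Of the 35 genes, 33 had at least 1 count and 29 had enough to be tested, 12 ligands and 17 receptors. At an adjusted p under 0.05 (edgeR, quasi-likelihood, over all 16249 genes tested), 18 of the 29 were called, 6 higher and 12 lower in tri-culture. Among all tested genes 26.9% were called, 13.9% higher and 13.0% lower. Ligands were higher in 5 and lower in 3 of 12, and receptors higher in 1 and lower in 9 of 17. The median log2 fold change (tri-culture over mono-culture) was 0.63 for the tested ligands, -0.85 for the tested receptors and 0.02 over all tested genes. The 18 called genes went the same way in 4 of 4 batches, and in each of them the CPM values of the 4 libraries of one group lay wholly above those of the other. Such separation was seen in 19 of the 29 tested members, 7 with tri-culture above and 12 below, against 29.4% of all tested genes, 15.3% above and 14.1% below. Scaling by library size only gave 8 members higher and 11 lower, and over all genes it turned the split of 2261 higher and 2112 lower into 2829 and 1663 (17.4% and 10.2%). With the batch number as a block 7 members were higher and 12 lower (14.6% and 14.5% of all genes). Without batches 3 and 4 there were 6 higher and 8 lower (9.44% and 9.61%).

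**Figure D1:**
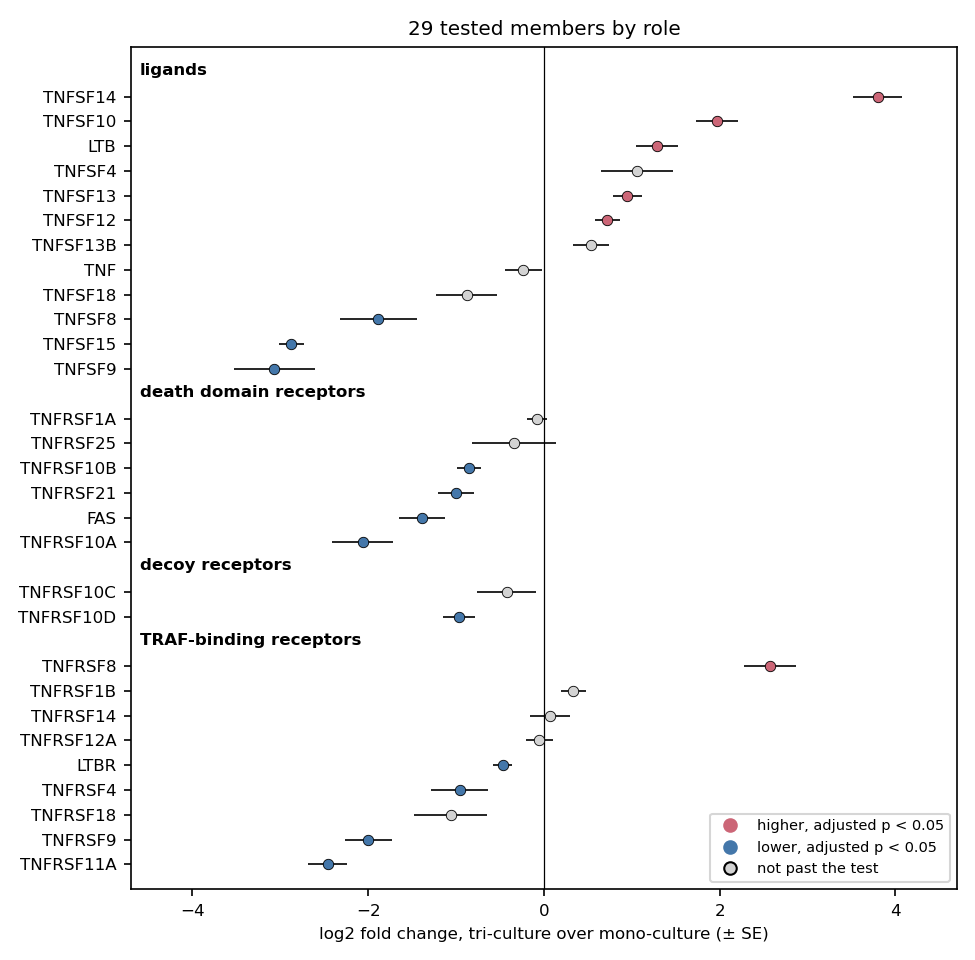
Log2 fold change (tri-culture over mono-culture, ± SE, horizontal axis) of the 29 tested members, grouped by role, from edgeR on 4 libraries a group. Red points are higher and blue points lower in tri-culture at an adjusted p under 0.05, and grey points did not pass: 5 ligands and 1 receptor are red, 3 ligands and 9 receptors blue.

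Short stretches near the starts of 4 called genes are shown because each of 2 pairs carries the same searched motif while its genes went in opposite directions. They come from the 250 bases before the most upstream start that RefSeq lists in GRCh38.p14, 5′ to 3′ on the gene's strand, with motif matches in capitals. For TNFSF10 and TNFSF9 the part of that window outside the exons of GENCODE 29 is given. For TNFSF14 and TNFRSF9 GENCODE 29 exons of the gene cover 115 and 94 bases of the window, and the 30 bases around the motif are given.
TNFSF10, higher in tri-culture, chr3:172523508-172523680, minus strand: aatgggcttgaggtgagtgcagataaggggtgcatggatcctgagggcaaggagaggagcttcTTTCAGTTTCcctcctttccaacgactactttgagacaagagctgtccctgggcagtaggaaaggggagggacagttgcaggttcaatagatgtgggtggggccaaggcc
TNFSF9, lower in tri-culture, chr19:6530776-6530998, plus strand: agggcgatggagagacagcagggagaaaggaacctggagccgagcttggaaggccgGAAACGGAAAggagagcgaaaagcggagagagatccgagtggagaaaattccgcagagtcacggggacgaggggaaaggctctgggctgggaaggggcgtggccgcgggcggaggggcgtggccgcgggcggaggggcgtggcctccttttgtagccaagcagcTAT
TNFSF14, higher in tri-culture, chr19:6670332-6670361, minus strand: gggaaagctGGGGGCTCCCCactgcacttg
TNFRSF9, lower in tri-culture, chr1:7940893-7940922, minus strand: agctgtggtGGGAATTTCCCatgagacccc
The capitals of TNFSF10 and TNFSF9 mark the interferon-response pair (2 copies of GAAA with 2 bases between them), read on the other strand in TNFSF10, and at the end of TNFSF9 the first 3 bases of a TATA box. Both windows held a TATA box (TATAAA), which begins 31 and 30 bases before the RefSeq start. The capitals of TNFSF14 and TNFRSF9 mark an NF-kB motif that matches at a pair of overlapping positions in each. Both of these windows also held an AP-1 motif (TGANTCA), and that of TNFRSF9 a STAT motif (TTCNNNGAA). Both strands were searched for these motifs and for the PU.1 core (GAGGAAG). Of 26 members with an upstream sequence in the table, 5 held the NF-kB motif (LTB, TNFSF13, TNFSF14, TNFRSF9 and TNFRSF14) against 9.58% of 27305 genes, 5 the AP-1 motif against 6.57%, 4 the interferon-response pair against 3.07%, 4 the STAT motif against 6.76%, 4 the TATA box against 11.2% and 2 the PU.1 core against 11.0%. A match is a run of letters in this window and not a measured site. The pairs shown were chosen for their opposite directions: of the members with the NF-kB motif, LTB, TNFSF13 and TNFSF14 were called higher, TNFRSF9 lower, and TNFRSF14 was not called.

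Among the ligands that rose, TNFSF14 changed most. TNFSF14 encodes LIGHT, a ligand of the lymphotoxin beta receptor and of HVEM (ENSG00000125735, GRCh38 chromosome 19, 6661253 to 6670588). It stood at 0.582, 0.611, 0.686 and 0.420 CPM in mono-culture libraries 1 to 4 and at 7.90, 10.6, 8.53 and 5.77 CPM in tri-culture libraries 1 to 4. Every tri-culture library was far above every mono-culture library, and the difference was 13.9-fold (log2 fold change 3.80 ± 0.27 SE, adjusted p = 7.08e-07, edgeR). TNFSF10, the death ligand TRAIL (ENSG00000121858, chromosome 3, 172505508 to 172523507), stood at 6.20, 6.99, 3.28 and 5.22 CPM in mono-culture against 28.2, 21.2, 16.0 and 19.1 CPM in tri-culture. The groups did not overlap, library 3 was lowest in both, and TNFSF10 was 3.92-fold higher (log2 fold change 1.97 ± 0.24 SE, adjusted p = 4.88e-05).

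LTB, lymphotoxin beta, is the membrane-anchored partner of lymphotoxin alpha and a ligand of the lymphotoxin beta receptor. It had 1.57, 2.66, 1.94 and 1.92 CPM in mono-culture against 4.82, 5.42, 3.94 and 5.46 CPM in tri-culture, 2.44-fold more without overlap (log2 fold change 1.29 ± 0.24 SE, adjusted p = 0.00146). LTA, its partner and neighbour on chromosome 6, was close to absent, with 1 count over mono-culture and 3 over tri-culture. The T cell genes CD3D and CD3E had no count in mono-culture and 1 and 8 counts in tri-culture.

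The neighbours TNFSF12 and TNFSF13 on chromosome 17 both rose. TNFSF12 encodes TWEAK and TNFSF13 APRIL, a ligand best known from B cell and plasma cell survival. TNFSF12 stood at 13.6, 18.4, 14.5 and 12.2 CPM in mono-culture against 22.1, 24.2, 26.4 and 24.2 CPM in tri-culture (log2 scale change 0.72 ± 0.14 SE, adjusted p = 0.00219). TNFSF13 stood at 8.49, 11.9, 12.4 and 14.4 CPM against 21.2, 20.6, 23.2 and 25.7 CPM (0.95 ± 0.17 SE, adjusted p = 0.000800). Neither pair of groups overlapped, and the tri-culture libraries lay closer together than the mono-culture libraries as a share of their mean. In GENCODE 29 a read-through gene shares 29.4% of the exon bases of TNFSF12 and 55.5% of those of TNFSF13, and in the count table it held 2 counts in mono-culture and none in tri-culture, so how reads were divided among the 3 genes is uncertain. With batches 3 and 4 left out the TNFSF12 call was lost (log2 fold change 0.53, adjusted p = 0.0990).

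TNFSF15 was the most abundant ligand in mono-culture and fell most clearly. It encodes TL1A, the ligand of the death domain receptor DR3 (ENSG00000181634, chromosome 9, 114784635 to 114806126). Mono-culture libraries held 98.0, 102, 139 and 124 CPM and tri-culture libraries 14.6, 15.7, 18.0 and 14.9 CPM. The lowest mono-culture value lay several-fold above the highest tri-culture value, and the log2 fold change was -2.87 ± 0.14 SE, a 7.33-fold decrease (adjusted p = 3.11e-08). TNFSF8, the CD30 ligand, is the next member along chromosome 9 (114893343 to 114930595) and was lower as well, at 1.44, 1.39, 3.97 and 3.60 CPM in mono-culture against 0.873, 0.408, 0.907 and 0.624 CPM in tri-culture (log2 scale change -1.88 ± 0.44 SE, adjusted p = 0.00602). Its mono-culture level was low in batches 1 and 2 and high in batches 3 and 4, and without batches 3 and 4 the value was -1.16 and the call was lost (adjusted p = 0.196).

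TNFSF9, TNFSF14 and CD70 lie near each other on chromosome 19 and did not move together. TNFSF9 encodes 4-1BBL, a co-stimulatory ligand (ENSG00000125657, chromosome 19, 6530999 to 6535928), and stood at 3.87, 4.61, 3.102 and 1.92 CPM in mono-culture. In tri-culture it stood at 0.643, 0.489, 0.0907 and 0.364 CPM, the third value resting on 2 counts. TNFSF9 was thus 8.39-fold lower without overlap (log2 fold change -3.07 ± 0.46 SE, adjusted p = 0.000254), while TNFSF14 in the same cluster rose. CD70, the ligand of CD27, had too few counts for the test, with 7, 3, 4 and 3 counts in mono-culture and 0, 0, 1 and 0 in tri-culture. That is a CPM ratio of 15.3 in favour of mono-culture with a 95% interval of 2.40 to 639, which covers counting error only.

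TNF, TNFSF13B, TNFSF4 and TNFSF18 did not pass the test. TNF, the founding cytokine of the family, stood at 6.33, 9.88, 11.9 and 9.48 CPM in mono-culture against 7.03, 7.10, 8.21 and 9.66 CPM in tri-culture (log2 scale change -0.23 ± 0.21 SE, adjusted p = 0.460). The groups overlapped, and TNF was higher in tri-culture in 2 of 4 batches. TNFSF13B, the B cell survival factor BAFF, stood at 34.3, 36.3, 25.7 and 25.7 CPM against 50.8, 59.9, 36.0 and 30.5 CPM, higher in tri-culture in 4 of 4 batches (0.54 ± 0.20 SE, adjusted p = 0.0683). The paired libraries of batches 1 and 2 were the higher ones in both groups, and with the batch number as a block TNFSF13B was called higher (0.51, adjusted p = 0.00634). It was called in 9 of 19 alternatives, among them those without tri-culture library 3 (0.0492) or 4 (0.0158), library size only (0.0204), upper quartile factors (0.0325), no filter (0.00515), the DESeq2 test (0.0479), and those without batches 1 and 2 (0.0402) or 3 and 4 (0.0162).

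TNFSF4, which encodes the OX40 ligand, ran from 0.308 to 0.984 CPM in mono-culture, and from 1.06 to 1.61 CPM in tri-culture, separated but not called (adjusted p = 0.0736). It passed as higher without mono-culture library 3 (adjusted p = 0.0478). TNFSF18, which encodes the GITR ligand, ran from 1.19 to 3.32 and from 1.04 to 1.52 CPM (adjusted p = 0.0819), and without mono-culture library 3 it was called lower (adjusted p = 0.0253). TNFSF11, the RANK ligand, had 3 counts over mono-culture and 12 over tri-culture, and FASLG, the Fas ligand, had none in any library, which allows a level of up to 0.0308 CPM in mono-culture, and up to 0.0343 CPM in tri-culture, taking 3 counts over a group as the limit.

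**Figure D2:**
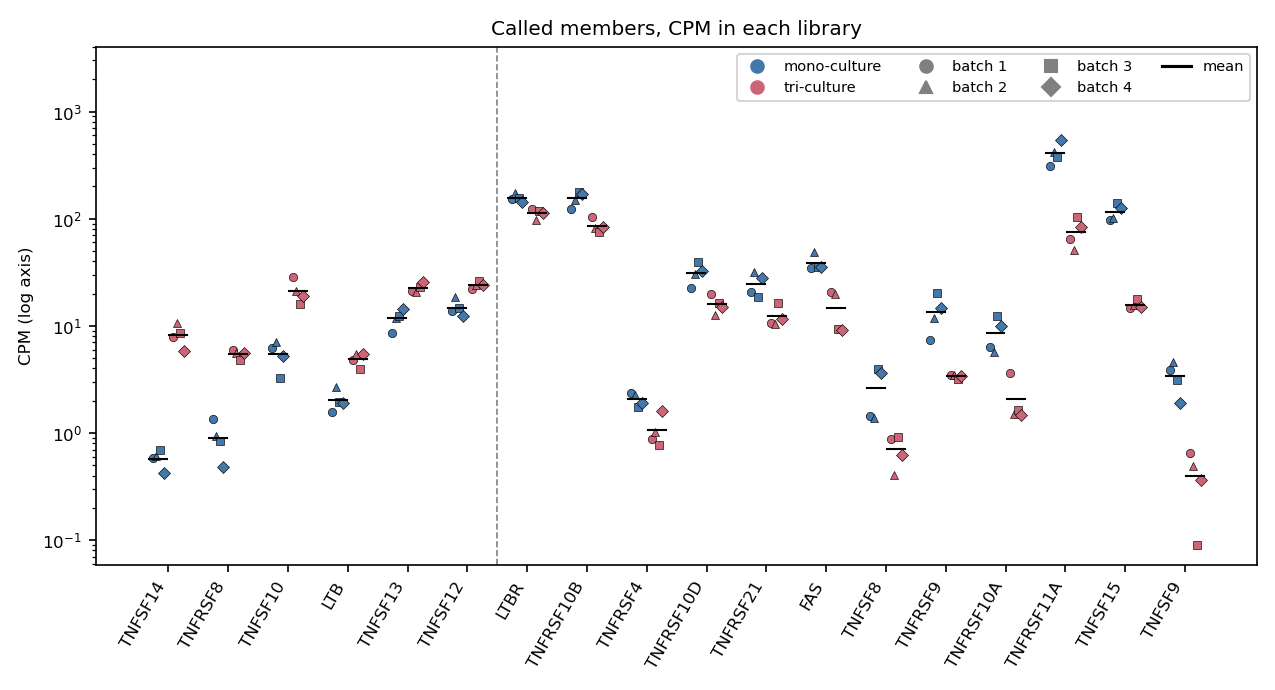
CPM in each library (log axis) of the 18 called members, the 6 higher in tri-culture left of the dashed line and the 12 lower right of it, with symbols for the 4 batches and a black bar for each mean of 4 libraries. TNFSF14 rises from between 0.420 and 0.686 to between 5.77 and 10.6 CPM, and TNFRSF11A falls from between 310.5 and 543 to between 50.9 and 103 CPM.

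Among receptors with a death domain, 4 of 6 fell and none rose (66.7% lower, against 13.0% of all tested genes). FAS, the receptor of the Fas ligand (ENSG00000026103, chromosome 10, 88990582 to 89015785), stood at 34.6, 49.1, 35.7 and 35.1 CPM in mono-culture against 20.8, 19.8, 9.34 and 9.04 CPM in tri-culture. All tri-culture libraries lay below all mono-culture libraries, and those of batches 3 and 4 were lower than those of batches 1 and 2. The log2 fold change was -1.39 ± 0.26 SE (adjusted p = 0.00138). ACTA2 lies opposite 8.9% of FAS exon bases. TNFRSF21, which encodes death receptor 6 and is also expressed by neurons and glia, fell from 20.7, 31.5, 18.4 and 28.0 CPM to 10.7, 10.4, 16.4 and 11.7 CPM (-1.0015 ± 0.20 SE, adjusted p = 0.00224).

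The receptors of TRAIL sit together on chromosome 8, and TNFRSF10A, TNFRSF10B and TNFRSF10D were called lower (13.0% of all tested genes were), 2 of them only with batches 3 and 4 included. TNFRSF10B, which encodes the death receptor DR5 (ENSG00000120889, chromosome 8, 23020133 to 23069179), was the most abundant of them, at 124, 149.9, 178 and 168 CPM in mono-culture against 104, 81.0, 74.8 and 83.5 CPM in tri-culture (log2 scale change -0.85 ± 0.14 SE, adjusted p = 0.000452). TNFRSF10A, which encodes the other death receptor, DR4, stood at 6.30, 5.66, 12.4 and 10.0 CPM against 3.63, 1.51, 1.63 and 1.46 CPM (-2.06 ± 0.35 SE, adjusted p = 0.000612). Both were lower in every tri-culture library, with tri-culture library 1 the highest of its group. Genes on the opposite strand lie over 16.6% of TNFRSF10A exon bases.

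TNFRSF10D, a decoy with a truncated death domain, fell from 22.4, 30.5, 39.1 and 32.3 CPM to 19.7, 12.5, 16.4 and 14.9 CPM (log2 scale change -0.97 ± 0.18 SE, adjusted p = 0.00139). TNFRSF10C, a decoy anchored to the membrane by a lipid, did not pass, at 8.45, 9.66, 9.31 and 7.86 CPM against 12.5, 5.91, 2.86 and 4.99 CPM (-0.42 ± 0.34 SE, adjusted p = 0.410). Tri-culture library 1 alone was above the mono-culture range, and without it TNFRSF10C was called lower (-0.95, adjusted p = 0.0114), as without batches 1 and 2 (-1.14, 0.00545); without batches 3 and 4 the value was 0.015. Without batches 3 and 4 the TNFRSF10A value was -1.24 and the calls of TNFRSF10A and TNFRSF10D were lost (adjusted p = 0.0614 and 0.0691), while without batches 1 and 2 TNFRSF10A stood at -2.86. These 4 genes are close copies of each other, so reads may be divided between them in ways the counting does not show, and TNFRSF10C shares 39.3% of its exon bases with other genes on its strand.

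TNFRSF1A, which encodes TNFR1, the widely expressed receptor of TNF, did not differ past the test. It stood at 256, 248, 215 and 243 CPM in mono-culture against 258, 200.4, 231 and 223 CPM in tri-culture (log2 scale change -0.08 ± 0.11 SE, adjusted p = 0.684). Its sign turned under library size scaling and under upper quartile factors. TNFRSF25, the TL1A receptor DR3, ran from 0.900 to 3.22 CPM and from 0.449 to 1.90 CPM (adjusted p = 0.664).

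Among receptors that bind TRAF adaptors, TNFRSF11A fell most. TNFRSF11A encodes RANK, known above all from osteoclasts, the bone-resorbing relatives of macrophages (ENSG00000141655, chromosome 18, 62325287 to 62391292). It stood at 310.5, 423, 378 and 543 CPM in mono-culture against 64.7, 50.9, 103 and 82.8 CPM in tri-culture. The groups lay far apart, and the difference was a 5.50-fold decrease (log2 fold change -2.46 ± 0.22 SE, adjusted p = 4.33e-06). TNFRSF9, the 4-1BB receptor (ENSG00000049249, chromosome 1, 7915894 to 7943165), stood at 7.43, 11.7, 20.1 and 14.6 CPM against 3.44, 3.51, 3.17 and 3.38 CPM (-1.997 ± 0.27 SE, adjusted p = 0.000100). Its mono-culture libraries varied widely and its tri-culture libraries hardly at all.

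TNFRSF8, which encodes CD30, was the single receptor that rose among the 17 tested of the 35 genes. It stood at 1.33, 0.944, 0.835 and 0.480 CPM in mono-culture against 5.92, 5.63, 4.76 and 5.61 CPM in tri-culture, 5.95-fold more without overlap (log2 fold change 2.57 ± 0.29 SE, adjusted p = 3.01e-05; ENSG00000120949, chromosome 1, 12063377 to 12144207). Its neighbour TNFRSF1B on chromosome 1 encodes TNFR2 and was the most abundant member in both groups. TNFRSF1B stood at 502, 482, 396 and 401 CPM in mono-culture against 680.0, 462, 537 and 564 CPM in tri-culture, where library 2 fell within the mono-culture range (0.33 ± 0.14 SE, adjusted p = 0.108). It passed as higher without tri-culture library 2 (0.41, adjusted p = 0.0490) and also with library size only (0.43, 0.0264), with upper quartile factors (0.41, 0.0383) and without batches 1 and 2 (0.47, 0.00354).

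LTBR, the lymphotoxin beta receptor that LIGHT also binds, fell modestly, from 152, 174, 155 and 144 CPM to 124, 97.9, 119 and 112 CPM (log2 scale change -0.47 ± 0.11 SE, adjusted p = 0.00618). The groups did not overlap, and 6.72% of LTBR exon bases lie opposite SCNN1A. TNFRSF14, which encodes HVEM, stood at 53.9, 48.5, 37.6 and 21.2 CPM against 34.6, 50.1, 44.9 and 40.0 CPM (0.07 ± 0.23 SE, adjusted p = 0.868), and an antisense gene lies over 13.4% of its exon bases. TNFRSF12A, the TWEAK receptor Fn14, stood at 8.52, 8.66, 8.86 and 10.5 CPM against 9.14, 9.79, 8.57 and 7.69 CPM (-0.05 ± 0.16 SE, adjusted p = 0.857). For both the groups overlapped and the sign turned under some alternatives.

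The remaining TRAF-binding receptors were scarce. TNFRSF4, which encodes OX40, stood at 2.36, 2.28, 1.73 and 1.92 CPM in mono-culture against 0.873, 1.02, 0.771 and 1.61 CPM in tri-culture (log2 scale change -0.96 ± 0.32 SE, adjusted p = 0.0443). The groups did not overlap, but the call held by a narrow margin and was lost when any library other than tri-culture library 4 was left out, at adjusted p values between 0.0547 (without mono-culture library 3) and 0.131 (without tri-culture library 3). TNFRSF18, which encodes GITR and lies beside TNFRSF4, ran from 0.900 to 2.72 and from 0.572 to 1.38 CPM (-1.06 ± 0.41 SE, adjusted p = 0.0765), and was called lower without mono-culture library 4 (0.0403) or tri-culture library 1 (0.0263). CD27, the receptor of CD70, had 38 and 42 counts over the groups, with 37.0% of its exon bases under an antisense gene. TNFRSF13B, which encodes TACI, had no count in any library.

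Set side by side, called ligand genes and the called genes of receptors they are known to bind did not all share a direction. Of pairs with a gene that was not called, only some are given. For the 4-1BB pair both genes fell, at log2 fold changes of -3.07 for TNFSF9 and -1.997 for TNFRSF9. For the CD30 pair the ligand gene TNFSF8 fell, at -1.88, and the receptor gene TNFRSF8 rose, at 2.57. For TRAIL the ligand gene TNFSF10 rose, at 1.97, and the receptor genes TNFRSF10A, TNFRSF10B and TNFRSF10D fell, at -2.06, -0.85 and -0.97. For LIGHT the ligand gene TNFSF14 rose, at 3.80, LTBR fell, at -0.47, and TNFRSF14 did not pass. LTB, also a ligand of the LTBR product, rose, at 1.29. RANK fell with its ligand gene TNFSF11 at 3 and 12 counts, and Fas fell with its ligand gene at no count in either group.

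Levels of different genes were compared per length, on the authors' length-scaled values rescaled to 1e6 per library. TNFRSF1B and TNFRSF1A led in both groups, at 379 ± 30.9 and 196 ± 12.3 in mono-culture and 529.7 ± 82.0 and 206 ± 24.6 in tri-culture (SD, n = 4 each), and their library ranges did not overlap in either group. In mono-culture TNFRSF11A came next at 158 ± 41.3, then TNFRSF10B at 106 ± 22.1 and LTBR at 79.8 ± 4.03, each overlapping its neighbour. In tri-culture LTBR and TNFRSF10B, at 64.1 ± 8.77 and 64.0 ± 6.55, overlapped each other, and TNFRSF11A stood at 32.2 ± 11.9, overlapping TNFSF13 and TNFRSF14. Among ligands TNFSF15 led in mono-culture at 51.4 ± 11.99, above TNFSF13B at 33.9 ± 4.04 with no overlap. In tri-culture TNFSF13B led at 53.9 ± 12.4, followed by TNFSF13 at 38.1 ± 7.15 with overlap, while TNFSF10 reached 22.3 ± 3.84 and TNFSF15 stood at 7.71 ± 1.23. The ligands summed to 156 ± 15.3 in mono-culture and 182 ± 5.51 in tri-culture, and the receptors to 1053 ± 46.7 and 995 ± 130.2. The length behind a value matters here. Relative to TNFSF10, the deposited values imply a length of 8.27 for FAS, 3.37 for TNFSF4 and 1.29 for TNFSF12, against 1.22, 1.14 and 0.541 from the exon bases of GENCODE 29. The place of these 3 genes in the order therefore depends on the annotation: FAS stood at 4.48 ± 0.499 and 1.85 ± 0.659 per length although it had 38.6 ± 6.97 and 14.7 ± 6.41 CPM.

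**Figure D3:**
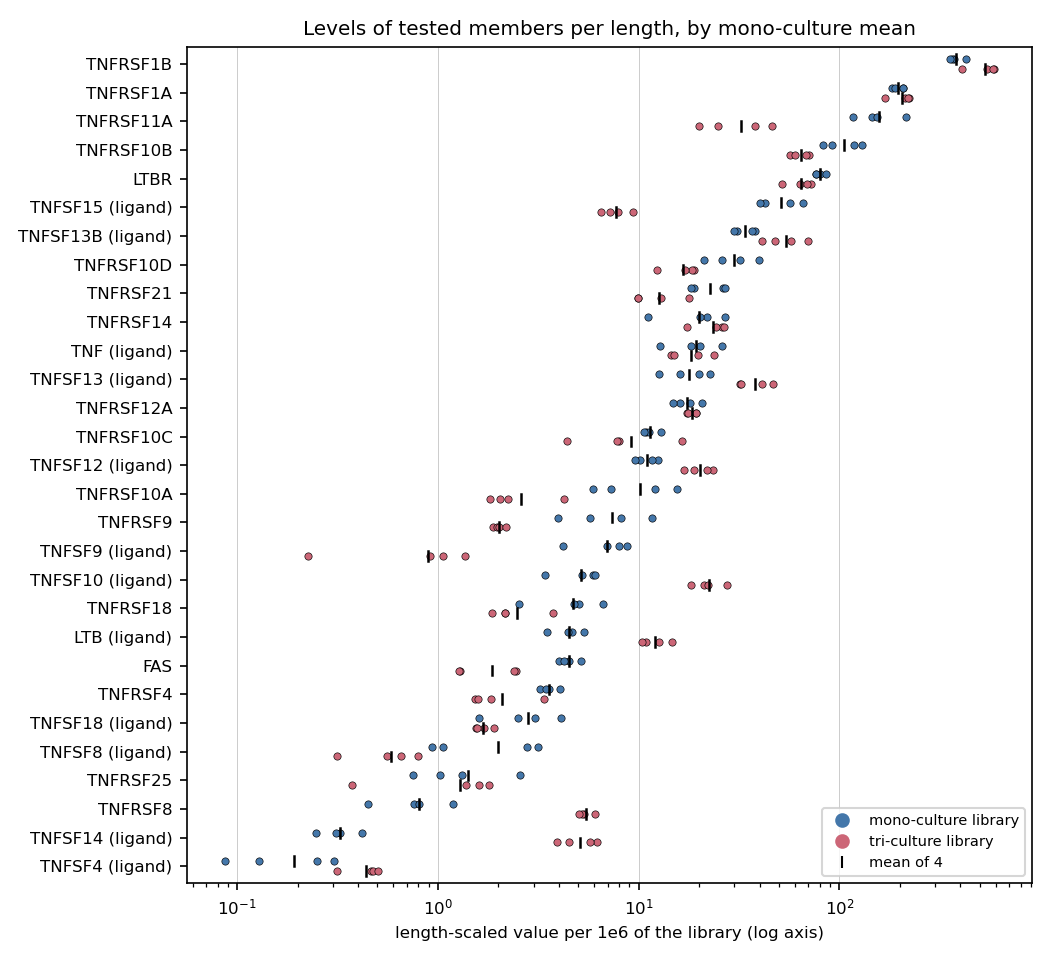
Length-scaled value per 1e6 of the library (log axis) of the 29 tested members in each of the 8 libraries, ordered by the mono-culture mean, with a black bar for the mean of 4. TNFRSF1B is highest in both groups, TNFRSF11A moves from 158 to 32.2, and TNFSF14 from 0.327 to 5.10.

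Among genes that act beside or downstream of the receptors, those that TNF is known to induce held the largest share of calls. These lists were chosen with earlier results of these data known, so their shares describe the lists and test nothing. Of 22 adaptor and ubiquitin genes tested, 1 was higher and 4 lower (22.7% called, against 26.9% of all genes), with a median log2 fold change of -0.04. MAP3K14, the NF-kB inducing kinase of the non-canonical pathway, rose from 19.6 ± 0.754 to 29.4 ± 3.59 CPM (log2 scale change 0.59 ± 0.12 SE, adjusted p = 0.00289). TRAF3, the adaptor that holds this kinase low, fell from 72.1 ± 6.51 to 53.9 ± 3.05 CPM (-0.42 ± 0.10 SE, adjusted p = 0.00846). The feedback inhibitors TNFAIP3 (A20) and TNIP1 fell, at log2 fold changes of -0.48 and -0.43 (adjusted p = 0.00559 and 0.0194). In the death pathway 4 of 12 tested genes were lower (33.3%, against 13.0% of all genes) and none higher, with a median of -0.13. BAX, a pore-forming protein of mitochondrial apoptosis, fell from 118 ± 20.7 to 70.4 ± 11.8 CPM (-0.74, adjusted p = 0.00200). The necroptosis genes RIPK3 and MLKL fell, at -0.63 and -0.54 (adjusted p = 0.0153 and 0.0306). Without batches 3 and 4 the adaptor calls were 0 higher and 1 lower, those of MAP3K14 (0.0608), TRAF3 (0.0753) and TNIP1 (0.122) being lost, and the death pathway calls 2 lower. Without tri-culture library 3, 2 adaptors were lower, and without mono-culture library 3 or 4, 2 death pathway genes. The MLKL call was lost without mono-culture library 3 (adjusted p = 0.0633) or 4 (0.102) or tri-culture library 1 (0.0685) or 2 (0.0706), and the TNIP1 call without mono-culture library 2 (0.0580) or tri-culture library 3 (0.0695). MLKL was also lost with library size only (0.1), with upper quartile factors (0.07) and without batches 3 and 4 (0.142). The RIPK3 call was lost with library size only (0.0584) and without batches 1 and 2 (-0.33, adjusted p = 0.169). TRAF3 was also lost with library size only (0.0586).

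Of 10 genes that process ligands and receptors, 1 was higher and 3 lower, with a median of -0.15. Over all tested genes 13.9% were higher and 13.0% lower. RHBDF1, an inactive rhomboid that escorts the TNF sheddase ADAM17, fell from 4.90 ± 0.881 to 0.552 ± 0.209 CPM (log2 scale change -3.15 ± 0.32 SE, adjusted p = 1.20e-05), whereas ADAM17 itself did not pass. The sheddase ADAM10 and the intramembrane protease SPPL2A fell, at -0.50 and -0.35. TIMP3, an inhibitor of ADAM17 and of matrix proteases, rose from 116 ± 28.4 to 307 ± 127 CPM (1.40 ± 0.28 SE, adjusted p = 0.00234). Tri-culture library 1, at 143.6 CPM, was level with the highest mono-culture library at 142.6. Without batches 3 and 4 the calls of TIMP3 (0.89, adjusted p = 0.110) and SPPL2A (0.158) were lost. The SPPL2A call was also lost with library size only (0.0748) and with no filter (0.0599). Of the genes that TNF is known to induce, 11 of 12 tested were lower and none higher (91.7% lower, against 13.0% of all genes), with a median log2 fold change of -1.12. Because this list too was chosen with earlier results known, the share is not independent support. CCL2, a chemokine for monocytes, stood at a log2 fold change of -4.67, PTX3 at -2.20, the matrix protease MMP9 at -2.14 and the adhesion molecule ICAM1 at -1.36 (adjusted p between 1.21e-07 and 0.000122).

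Of 12 further superfamily genes, 6 could be tested, 2 were higher (33.3%, against 13.9% of all tested genes) and 1 lower (16.7%, against 13.0%). TNFRSF13C, which encodes the BAFF receptor, rose from 0.235 ± 0.0484 to 1.84 ± 0.561 CPM (log2 scale change 2.93 ± 0.40 SE, adjusted p = 0.000123). TNFRSF19, a receptor of neural progenitors among other cells, rose from 0.0577 ± 0.0807 to 2.17 ± 1.36 CPM (4.86 ± 0.71 SE, adjusted p = 0.000197). Its tri-culture libraries 1 to 4 held 4.18, 1.22, 1.77 and 1.51 CPM. The part of other cells in this rise was not tested. EDA, ectodysplasin, fell from 21.0 ± 3.02 to 10.8 ± 0.636 CPM (-0.95 ± 0.14 SE, adjusted p = 0.000228). CD40, a co-stimulatory receptor of antigen-presenting cells, stood at 46.5 ± 4.36 and 43.6 ± 1.57 CPM (adjusted p = 0.570), and EDA2R and RELT did not pass either.

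**Figure D4:**
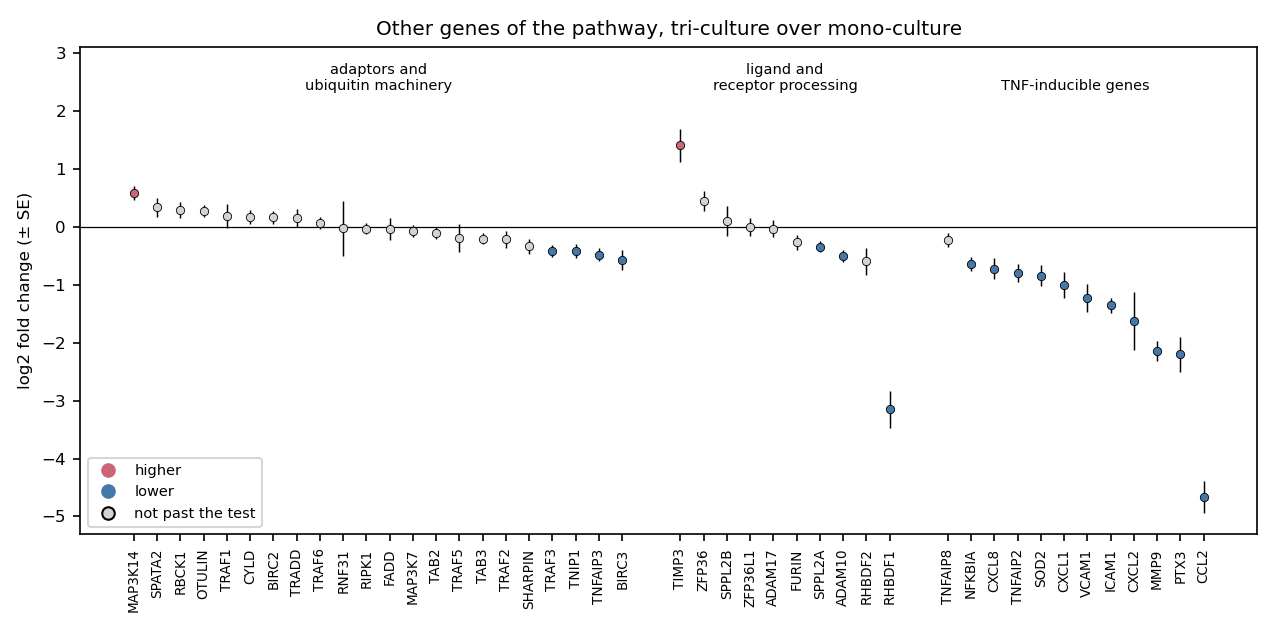
Log2 fold change (tri-culture over mono-culture, ± SE, vertical axis) of tested genes of 3 pathway lists, each ordered from high to low, with red for higher, blue for lower and grey for not past an adjusted p of 0.05 (edgeR, 4 libraries a group). Among TNF-inducible genes 11 of 12 are blue, while 17 of 22 adaptor and ubiquitin genes are grey.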

How the data were processed

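Per the labels' protocols, GFP-labelled cells were sorted into a lysis reagent in 4 independent batches and their total RNA was purified. The authors deposited whole-number counts of reads per Ensembl gene, made with HISAT2 2.1.0 and featureCounts 2.12.3, both named with GRCh38 in the submitters' processing notes; annotation release and strand use: not given in the sources used here. Another deposited table holds a length-scaled signal named as TPM, whose library totals ran from 0.866 to 1.14 (in units of 1e6); it was rescaled to 1e6 per library to compare genes.

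Genes were filtered by filterByExpr (minimum count 10, minimum total 15), leaving 16249, scaled by TMM and tested with edgeR 4.0.16 (R 4.3.3, quasi-likelihood, robust, group only), with Benjamini-Hochberg adjustment over all of them. The SE is the log2 fold change divided by the root of F, an approximation. CPM are means ± SD of 4 libraries. The script was tested on simulated counts. Gene positions are from GENCODE 29 (GRCh38).

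Batch numbers in the labels are shared by the groups and pair the libraries; deviations from group means correlated within pairs at 0.185, 0.127, 0.264 and 0.0796. The main fit has no block. No 2 libraries of one group were as alike as sampling noise allows (chi-square per degree of freedom 9.21 to 65.1). Intervals and floors cover counting error only.

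Members and lists were chosen with earlier results of these data known. Values in every library are printed for members called or with a mean of at least 5 CPM; of each pathway list up to 4 genes with the smallest adjusted p are named, 1 of which is not reported here, and CD40, RELT and ADAM17 were added after their values were seen. Alternatives were library size only, upper quartile factors, DESeq2 1.42.0 size factors, other filters, the DESeq2 test, limma 3.58.1 on log2 of the deposited signal plus 0.1 or 1, the block, and leaving out each library; leaving out batches 1 and 2 or 3 and 4 was chosen after seeing the data.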

Additional observations from a re-analysis of the deposited data

Results flagged for a closer look

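In each tested member and group, the library farthest from the others was set against Dixon's 95% critical value for 4 libraries. Of 58 such groups 4 passed, and chance alone gives about 1 in 20. FAS in mono-culture library 2 stood at 49.1 CPM, apart from the others at 34.6 to 35.7. TNFRSF10A in tri-culture library 1 stood at 3.63 CPM, apart from 1.46 to 1.63. TNFRSF25 in tri-culture library 2 stood at 0.449 CPM, below 1.66 to 1.90. TNFRSF12A in mono-culture library 4 stood at 10.5 CPM, above 8.52 to 8.86.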

How the results depend on the processing

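Of the 18 called members, 13 were called in the same direction in all 19 alternatives and none changed sign. The exceptions were TNFSF8, TNFSF12, TNFRSF10A and TNFRSF10D, each lost without batches 3 and 4, and TNFRSF4, lost in 12 alternatives. Leaving out single libraries gave 6 to 7 members higher and 11 to 13 lower, and 2014 to 2311 genes higher and 1786 to 2135 lower over the table. With the batch number as a replicate block 7 members were higher and 12 lower; TNFSF13B was gained, and the block changed no other member's call.

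Signs turned in members that were not called. TNFRSF1A stood at 0.023 with library size only and 0.0012 with upper quartile factors, and TNFRSF12A at 0.040 and 0.024. Without batches 3 and 4, TNFRSF10C stood at 0.015, TNFRSF12A at 0.13 and TNFRSF14 at -0.28, and without batches 1 and 2 TNFRSF25 at 0.74. With single libraries left out TNFRSF25 ran from -0.56 to 0.12, TNFRSF12A from -0.11 to 0.013 and TNFRSF14 from -0.15 to 0.24. The cause was not tested.

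Small list counts moved. Adaptors were 2 higher and 2 lower with library size only, 2 higher with upper quartile factors or without batches 1 and 2, and 0 higher and 1 lower without batches 3 and 4; single libraries gave 1 to 2 higher and 2 to 4 lower. Death pathway genes were 2 lower with library size only or without batches 3 and 4, and 2 to 4 lower over single libraries. Processing genes were 2 higher with library size only, upper quartile factors or no filter, 3 without batches 1 and 2, 0 without batches 3 and 4, and 1 to 2 over single libraries. Further superfamily genes were 2 lower without batches 1 and 2, and 1 to 2 over single libraries. With a pseudocount of 1 on the deposited signal, TNFSF8, TNFSF9, TNFSF14 and TNFRSF8 stood at -0.90, -2.16, 2.115 and 1.76, smaller because low values are compressed. Depth limits members of a few counts, such as CD70, TNFSF11 and LTA.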
